A study of Brassica rapa with 8 samples.

Results

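CYP79B and CYP83B1 homologues, which encode the enzymes of the first steps of indolic glucosinolate synthesis, were followed over the tissues of *Brassica rapa*. They were taken by identifier from a list of 4 gene models, all of which were found among the 38200 in the deposited table: Bra011821 and Bra010644, homologues of *Arabidopsis thaliana* CYP79B2, Bra030246, the homologue of CYP79B3, and Bra034941, the homologue of CYP83B1. The table carries no gene names and the gene name table used here held none of the 4 identifiers, so these assignments come from the list and were not checked. The accession sequenced was Chiifu-401-42, an inbred line of Chinese cabbage, untreated, with 8 RNA-seq samples from 6 tissues: a pair from root, a pair from leaf, and a single sample from stem, from flower, from silique and from callus. Plants 7 weeks old gave the root, stem and leaf samples, and flowers were taken at blooming without the floral shoot and siliques 15 days after pollination, all in a greenhouse at 15 to 25°C per the sample labels, whereas callus was grown in tissue culture at 25°C. The methods of the study give a single greenhouse temperature within that range. How many plants went into a sample is not given in the sources used here. Tissue labels were not checked against marker genes, whose identifiers are not paired with names in these sources. The study lists flower- and silique-specific genes in a part of its supplement that was not available here.

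Indolic glucosinolates are sulphur- and nitrogen-containing defence compounds of the Brassicaceae that are made from tryptophan. In *A. thaliana*, CYP79B2 and CYP79B3 are cytochromes P450 that convert tryptophan to indole-3-acetaldoxime, and CYP83B1 oxidises this aldoxime and so directs it into glucosinolates. The aldoxime is also a precursor of the phytoalexin camalexin in that species, and plants that lack CYP83B1 accumulate auxin, for which reason the gene is also known as a superroot locus.

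Expression was measured as FPKM, fragments per kilobase of gene model scaled to the mapped fragments of the sample, which allows levels of different genes to be compared per length. The authors deposited the bounds of a 95% confidence interval with each value. A gene is called expressed in a sample where the lower bound lies above 0, the rule of the study. Fragment numbers were derived from the width of these intervals, and put the depth of the samples between that of stem and 1.90 times that of stem (root 1). By this measure root 1 and leaf 1 were deeper than root 2 and leaf 2. The read totals in the supplement of the study order the paired samples the other way, so that the replicate numbers may be exchanged between it and the table. These intervals hold counting error alone at best and say nothing of variation among plants, and only root and leaf have 2 samples.

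Of the CYP79B2 homologues, Bra011821 (Scaffold000011, from 3994747 to 3996640) was the abundant copy. Stem had an FPKM of 115, root 1 and root 2 had 58.5 and 49.8, and leaf 1 and leaf 2 had 52.5 and 41.5. In callus it was 9.16, in flower 5.50 and in silique 0.298, where the value rested on 5 implied fragments (95% interval 0.0315 to 0.565). Stem was thus 2.13 times the mean of root, 54.1 ± 6.13 (SD, n = 2), and 2.46 times the mean of leaf, 47.0 ± 7.75 (SD, n = 2). The root and leaf values overlapped, whereas the intervals of stem, callus, flower and silique were each separate from those of the tissue next in order. Ranked among all genes of its sample, Bra011821 lay at percentile 97.0 in stem and at percentile 30.3 in silique.

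Bra010644 (Scaffold000010, from 2534456 to 2536724), the other CYP79B2 homologue, was expressed far lower and mainly in stem. Its FPKM was 13.7 in stem (95% interval 11.8 to 15.6), 2.91 in leaf 1, 1.55 in leaf 2, 2.68 in root 1 and 1.63 in root 2. Callus had 1.59 and silique 1.22, and the gene is listed at 0 in flower, where 1 fragment would have been worth 0.0494 FPKM. Stem exceeded the leaf mean, 2.23 ± 0.962 (SD, n = 2), by 6.15-fold, the widest gap between stem and the next tissue among the 4 genes. The intervals of leaf, root, callus and silique overlapped along that order, and so their order is not resolved. Outside stem its values rested on 20 to 88 implied fragments. Those of root 1 (81.5) and silique (20.5) were not whole to within 0.05, whereas 87.6% and 90.2% of all values below 200 fragments were whole in these samples. The stem value (218.4) was not whole either, but lay above the 200 fragments below which this was counted. Reads shared with a similar copy were not tested here. The study kept unique alignments and reports that multiply mapped reads affected very few of its duplicated gene pairs.

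Bra030246 (Scaffold000070, from 505871 to 508137), the CYP79B3 homologue, followed Bra011821 at a lower level. The FPKM of the stem sample was 84.5, those of root 29.9 and 22.2, and those of leaf 26.6 and 17.5. It was 1.84 in flower and 1.16 in callus, on 39 and 23 implied fragments with overlapping intervals, and the gene is listed at 0 in silique. Stem was 3.24 times the mean of root, 26.1 ± 5.41 (SD, n = 2), and 3.83 times that of leaf, 22.0 ± 6.48 (SD, n = 2), and the ranges of root and leaf overlapped. Compared with stem, flower was lower by 45.9-fold and callus by 72.9-fold.

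Bra034941 (Scaffold000099, from 844777 to 846608), the CYP83B1 homologue of the second step, was the most abundant of the 4 genes in every sample. The FPKM was 447 in stem, 293 in root 1, 265 in root 2, 204 in callus, 146 in leaf 1 and 118 in leaf 2. It was 34.2 in flower and 24.5 in silique, still on 666 and 397 implied fragments. In the order stem, root, callus, leaf, flower and silique no neighbouring tissues had overlapping intervals. Ranked among all genes it lay between percentile 86.7 (silique) and percentile 99.7 (stem).

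**Figure D1:**
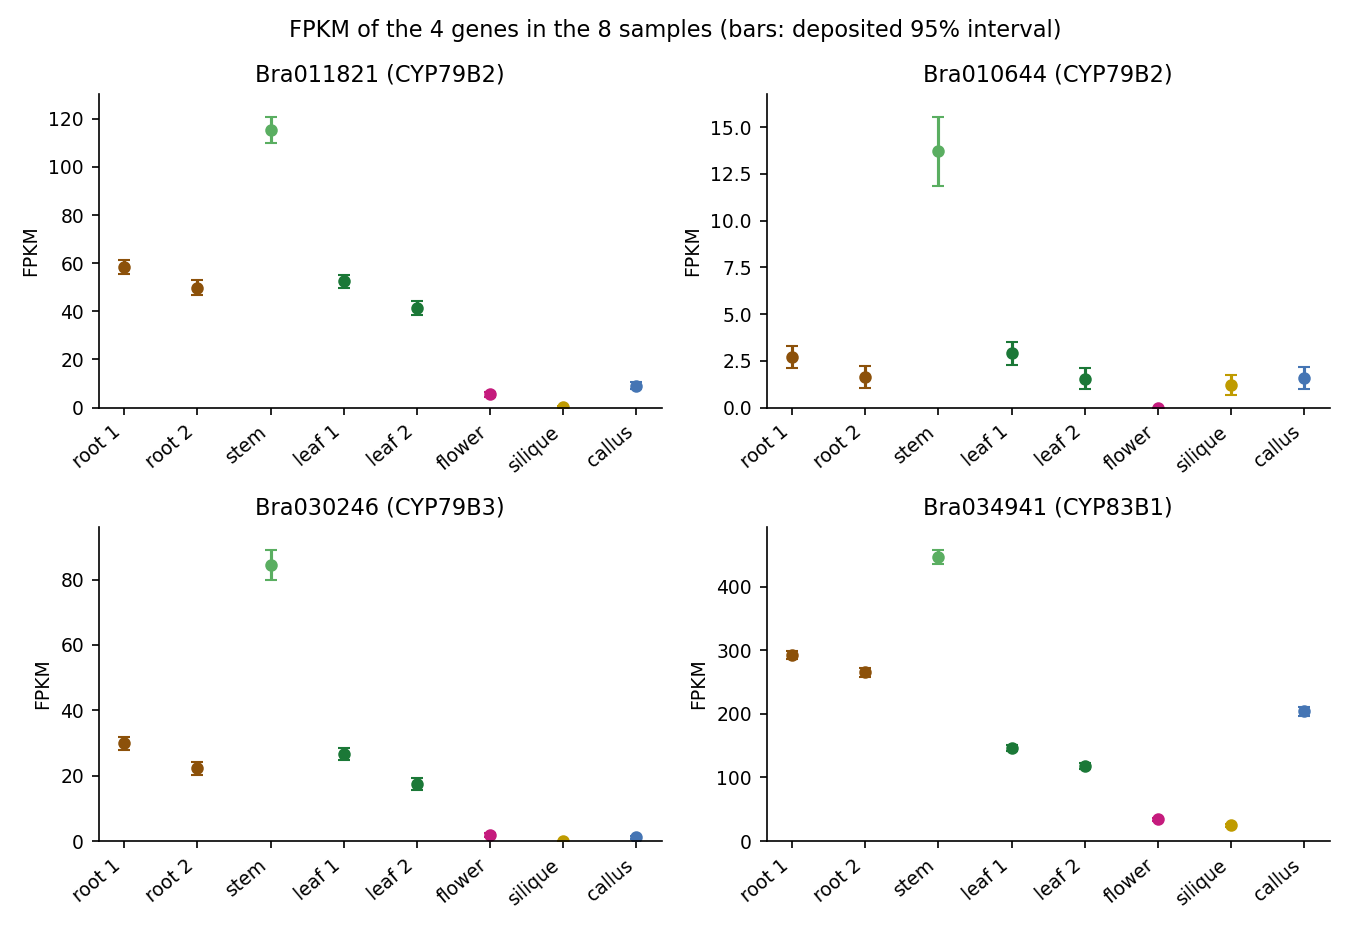
FPKM (linear y axis, a scale of its own for each gene) of the 4 genes in the 8 samples (x axis), with points for single samples, coloured by tissue, and bars for the deposited 95% confidence interval. Stem is the highest sample in each panel (115, 13.7, 84.5 and 447), points on the axis in flower (Bra010644) and silique (Bra030246) are values listed at 0, and callus is high only for Bra034941 (204).

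All 4 genes had their highest mean in stem, against 25.0% of the 33082 genes expressed in at least 1 sample. In 3 of them stem was at least 2-fold above every other tissue on log2(FPKM + 1), against 3.48% of all expressed genes, the exception being Bra034941 with 1.60-fold over root on the linear scale. Silique was the lowest tissue of 3 genes (16.4% of all), the exception being Bra010644. In both root and leaf, sample 1 was higher than sample 2 for each of the 4, which was also true of 55.0% of the expressed genes. Bra011821 and Bra034941 were expressed in every sample, as were 59.0% of the expressed genes, whereas Bra010644 and Bra030246 were not.

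FPKM depends on what else a library holds. In callus 1 gene model made up 17.3% of the summed FPKM, against 0.431% for the highest gene of root 1, and the median gene tested was lower in leaf than in root by 0.47 on the log2 scale. The levels were therefore also expressed after scaling each sample by the median of ratios, under which the median gene differed by -0.10. Stem kept the highest level of all 4 genes, which then held for 13.3% of the expressed genes, but by smaller margins. Scaled Bra011821 was 83.3 in stem against 53.1 ± 0.365 (SD, n = 2) in leaf, a 1.57-fold difference, and it no longer passed 2-fold over every tissue. Scaled Bra034941 was 322 in stem and 260 in callus, only 1.24-fold apart, and callus then lay above root (236 ± 14.5, SD, n = 2). Bra010644 (4.02-fold) and Bra030246 (2.47-fold over leaf) still passed, against 1.31% of all expressed genes. Leaf and root changed places for Bra011821 and Bra030246. For Bra011821 and Bra034941 sample 1 was then lower than sample 2 in both root and leaf, whereas for Bra010644 and Bra030246 it stayed higher. The share of all genes higher in sample 1 was not computed after scaling. With 1 sample of stem, none of these differences has a replicate check.

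The make-up of the CYP79B transcripts was compared within each sample, where scaling does not enter. Bra011821 contributed 64.2% and 67.6% of the summed CYP79B FPKM in the root samples, 64.0% and 68.6% in the leaf samples, and 54.1% in stem. In these samples Bra030246 supplied 28.8% (leaf 2) to 39.5% (stem), and Bra010644 2.21% (root 2) to 6.41% (stem). The root and leaf make-up was alike within the same sample number, and stem stood out by more Bra030246 and Bra010644. Flower had 74.9% Bra011821 and 25.1% Bra030246. Callus had 76.9% Bra011821, 13.3% Bra010644 and only 9.74% Bra030246. In silique the order of the CYP79B2 homologues was turned, with 80.4% of the sum from Bra010644 and 19.6% from Bra011821, but the sum was only 1.52 FPKM. The intervals there, 0.682 to 1.76 for Bra010644 and 0.0315 to 0.565 for Bra011821, did not overlap. They come from a single library, rest on 20.5 (not whole) and 5 implied fragments, and hold counting error alone at best.

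The log2 ratio of Bra010644 to Bra011821, with a pseudocount of 1, was -4.01 in root 1, -4.27 in root 2, -3.78 in leaf 1 and -4.06 in leaf 2. The values of leaf and root overlapped, and their means differed by 0.22 (exact permutation test, two-sided, p = 0.667, where 2 samples against 2 cannot go below 0.333). Without a pseudocount, the ratio of Bra010644 to Bra011821 was 0.0327 (root 2) to 0.0554 (leaf 1) in root and leaf, 0.119 in stem, 0.173 in callus and 4.09 in silique, and Bra010644 is listed at 0 in flower.

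Transcripts of Bra034941 exceeded the summed transcripts of the listed CYP79B homologues in every sample, and by very different factors. Whether the list holds every copy of either step was not checked. The ratio of Bra034941 to the summed CYP79B homologues was 1.78 in leaf 1, 1.96 in leaf 2 and 2.09 in stem. It was 3.22 in root 1, 3.60 in root 2 and 4.66 in flower. In silique it reached 16.2, and in callus 17.1. With both deposited bounds taken at their extremes the ratio in callus lay between 13.7 and 22.3 and that in silique between 9.50 and 37.9, both above the highest value of flower, 6.46. In callus the high ratio went with a Bra034941 level between those of leaf and root, or above both after median of ratios scaling, and a CYP79B sum of 11.9, against 60.5 to 91.0 in root and leaf. In silique Bra034941 and the CYP79B sum were both low, at 24.5 and 1.52. Both root samples lay above both leaf samples, with a leaf minus root difference of the log2 ratio of -0.87 (pseudocount of 1), but 2 samples a tissue allow no p below 0.333, which was the value reached (exact permutation test, two-sided).

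**Figure D2:**
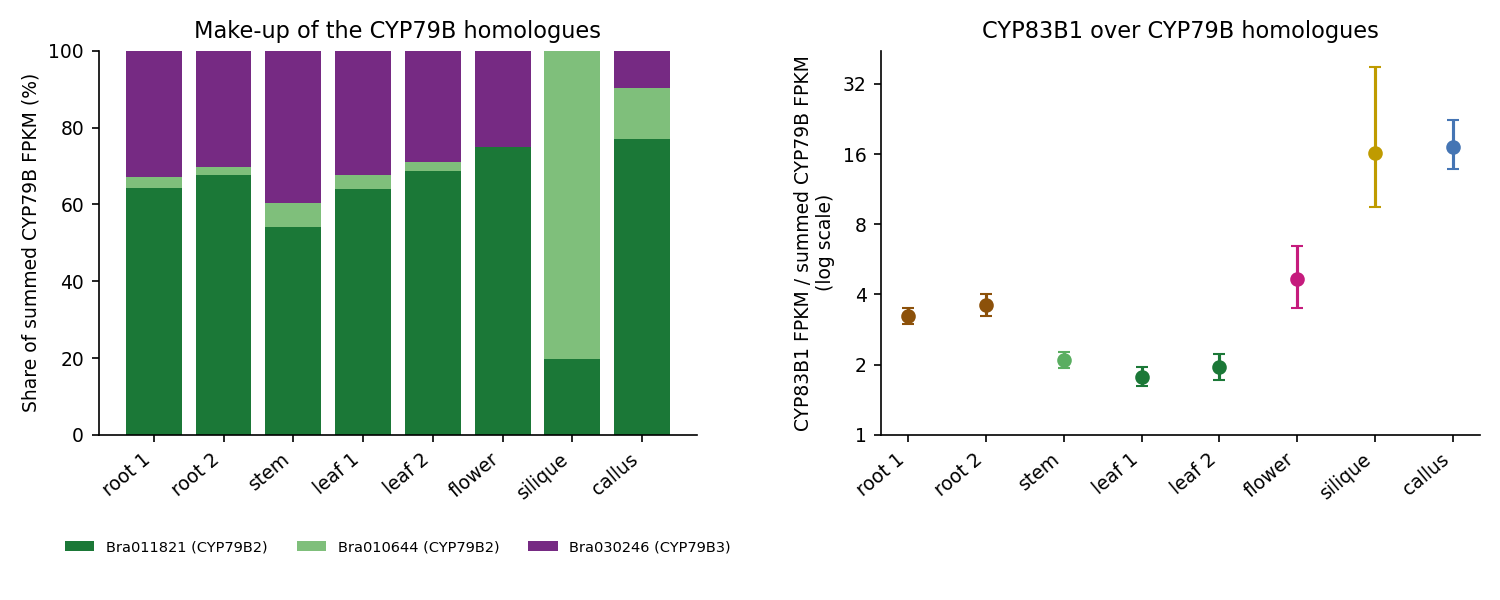
Left, share of the summed CYP79B FPKM (y axis, percent) held by each of the 3 CYP79B homologues in the 8 samples (x axis). Right, ratio of Bra034941 FPKM to the summed CYP79B FPKM on a log axis, with bars for the extremes that the deposited interval bounds allow: leaf and stem lie between 1.78 and 2.09, root between 3.22 and 3.60, and silique and callus at 16.2 and 17.1.

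Replicates existed for leaf and root, and these were tested against each other with limma on log2(FPKM + 1) across 25725 genes, and all 4 homologues passed the filter. At an adjusted p under 0.05, 34.6% of the genes tested were higher in root and 16.3% in leaf. Of the 4 homologues 1 was called. Bra034941 was higher in root (293 and 265 FPKM) than in leaf (146 and 118), with a leaf minus root difference of -1.08 ± 0.26 (SE) and an adjusted p of 0.0121 (Benjamini-Hochberg over all genes tested). Root was 2.01 times leaf in sample 1 and 2.24 times in sample 2, and the groups did not overlap. Against the median gene, which was itself at -0.47, the difference was smaller. With upper quartile scaling, under which the median gene was at -0.24, it was -0.82 ± 0.23 (SE) and the call was kept (adjusted p of 0.0348 in limma). With median of ratios scaling, under which 27.8% of all genes were higher in root and 24.1% in leaf, it was -0.66 ± 0.23 (SE) with an adjusted p of 0.0707, and the call was also lost without any one of the 4 samples (adjusted p from 0.0505 without leaf 1 to 0.108 without root 1). Over all alternatives the adjusted p in limma ran from 0.000555 to 0.108, and root stayed the higher tissue in each.

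None of the CYP79B homologues passed the test. The leaf minus root difference was -0.20 ± 0.25 (SE) for Bra011821, with an adjusted p of 0.525 in limma. It was -0.25 ± 0.30 (SE) for Bra030246, with an adjusted p of 0.520. For Bra010644 it was 0.019 ± 0.30 (SE), with an adjusted p of 0.963. Under median of ratios scaling these became 0.21 ± 0.15, 0.16 ± 0.17 and 0.30 ± 0.21 (SE), all on the side of leaf and none past the threshold (adjusted p from 0.286 to 0.470). These errors leave room for moderate differences in either direction. On deposited FPKM with the replicate number as a block, the SE was 0.13 for Bra011821, 0.12 for Bra030246 and 0.17 for Bra010644. None of these homologues passed the threshold then either.

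**Figure D3:**
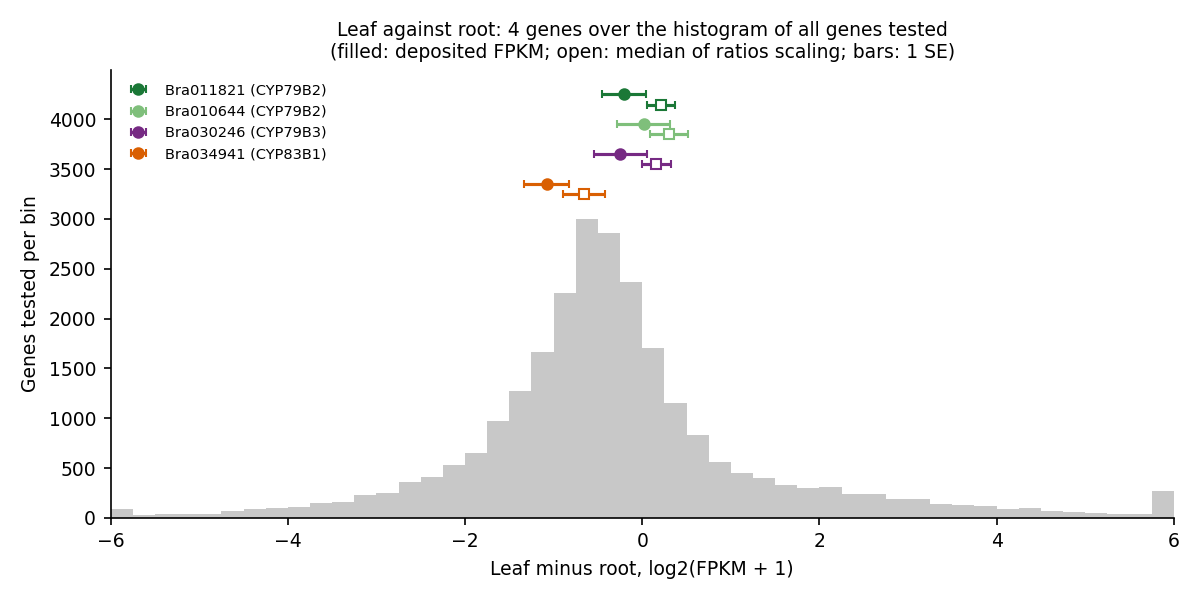
Leaf minus root difference of log2(FPKM + 1) (x axis) for the 25725 genes tested, as a histogram with genes per bin on the y axis and everything beyond 6 in the outermost bins. The histogram shows deposited FPKM only, with the median gene at -0.47. After median of ratios scaling the median gene was at -0.10, so the open points have no histogram of their own. Points above it are the 4 homologues with 1 SE, filled for deposited FPKM and open for median of ratios scaling, their height being for display only: Bra034941 lies at -1.08 and -0.66, and the CYP79B homologues lie between -0.25 and 0.30.

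Each tissue was then set against the mean of the other 5 on log2(FPKM + 1), called at 2-fold and without a test, since 4 tissues have 1 sample. Of the 24 values 17 were called. The share called among all expressed genes over every tissue and direction was not computed, so this count cannot be called high or low. Shares for single tissues and directions are given below. Stem was higher for all 4 homologues (21.3% of the expressed genes), by 4.05 for Bra030246, 3.31 for Bra011821, 2.71 for Bra010644 and 2.27 for Bra034941. Root was higher for 3 of them (17.2% of all), by 2.04 for Bra030246, 2.01 for Bra011821 and 1.46 for Bra034941. Leaf was higher for 2 (11.2% of all), by 1.76 for Bra011821 and 1.74 for Bra030246.

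The reproductive organs lay on the other side. Flower was lower for all 4 homologues (12.8% of the expressed genes), from -1.69 for Bra011821 to -2.13 for Bra034941. Silique was lower for 3 (18.1% of all), with -4.48 for Bra011821, -3.66 for Bra030246 and -2.68 for Bra034941, whereas Bra010644 was at -0.56. Callus was lower for Bra030246 alone (21.9% of all), at -2.32. None of the 4 was at least 2-fold higher in callus (13.6% of all), but Bra034941 stood at 0.92 and passed after scaling, at 1.35. The share of all expressed genes that passed in callus after scaling was not computed, so that call has no background. In such bulk samples, fewer cells that express a gene and less RNA per cell cannot be told apart.

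**Figure D4:**
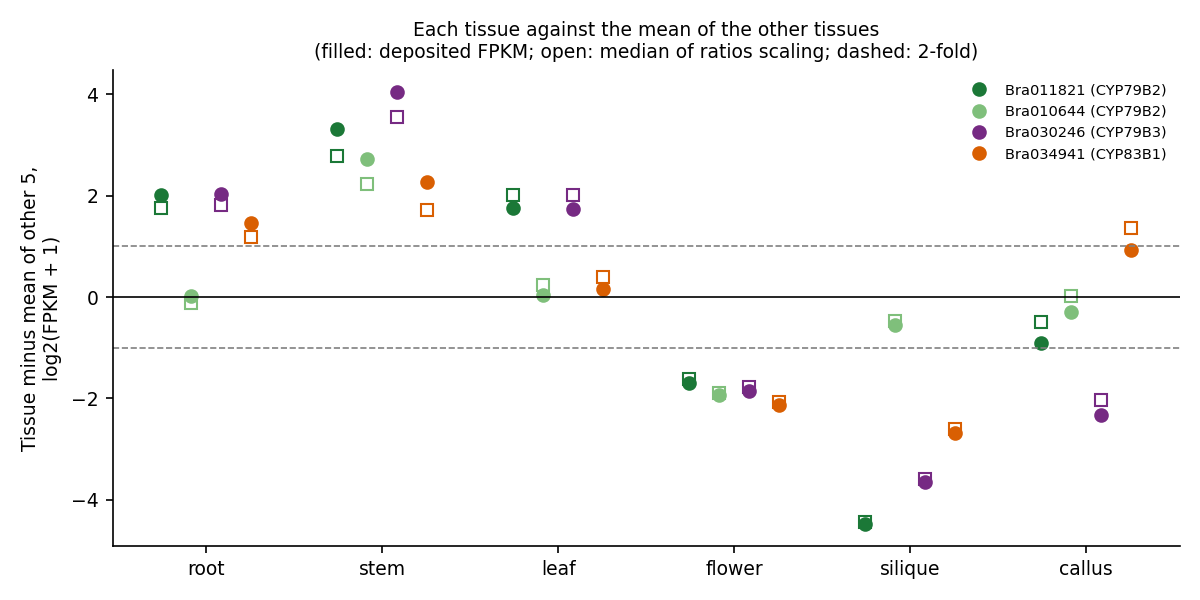
Difference of each tissue (x axis) from the mean of the other 5 tissues on log2(FPKM + 1) (y axis) for the 4 homologues, filled for deposited FPKM and open for median of ratios scaling, with dashed lines at 2-fold. Stem is above the upper line for all 4 (2.27 to 4.05) and flower below the lower one for all 4, and in callus Bra034941 (0.92) and Bra030246 (-2.32) lie on opposite sides.

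The breadth of expression was described by the tissue specificity index T of the study, which is 0 for equal levels in all tissues and 1 for expression in a single tissue. It was 0.895 for Bra010644, 0.879 for Bra030246, 0.799 for Bra011821 and 0.698 for Bra034941, with a median of 0.839 against 0.679 over all 33082 expressed genes. T was at least as high as that of Bra010644 in 20.0% of the expressed genes, and at least as high as that of Bra034941 in 47.5%. With T taken from log2(FPKM + 1) these shares were 25.7% and 72.0%. Choosing any 1 root and 1 leaf sample moved these values with an SD of 0.0101 to 0.0163. After scaling, T fell to 0.561 for Bra034941 and 0.720 for Bra011821.

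Patterns over the 8 samples were compared by Pearson's r of log2(FPKM + 1), as a description over samples that share libraries and, in root and leaf, tissues. Bra011821 and Bra030246 were the most alike pair, with r = 0.97, and Bra030246 ranked as number 33 of 23378 genes in its likeness to Bra011821. Bra034941 had r = 0.87 with Bra011821 and 0.80 with Bra030246. Bra010644 had r of 0.65, 0.72 and 0.73 with the others, below every other pair. It ranked as number 3584 in likeness to Bra011821, the other CYP79B2 homologue. On ranks of samples the order turned: Spearman's rho of Bra010644 was 0.93 with Bra011821, 0.86 with Bra030246 and 0.83 with Bra034941, and the lowest rho was that of Bra030246 and Bra034941, 0.81.

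Among all genes, Bra029107 (r = 0.996), Bra033938 (0.991) and Bra029925 (0.989) had the patterns most like Bra011821. For Bra030246 these were Bra026266 (0.999), Bra039321 (0.992) and Bra037793 (0.992). Nearest to Bra010644 were Bra024023 (0.988), Bra007045 (0.983) and Bra014893 (0.971), and nearest to Bra034941 were Bra008683 (0.990), Bra037384 (0.987) and Bra011939 (0.986). These genes were picked by r over the same samples, so their likeness to the homologues in single tissues is not a separate result. Bra008683 shared the high callus value of Bra034941, with FPKM of 208 in callus, 369 in stem, 249 and 288 in root, and 188 and 157 in leaf. Bra029107, like Bra011821, was high in stem (30.8), root (21.6 and 18.1) and leaf (23.0 and 17.8), low in callus (5.19) and flower (2.91), and listed at 0 in silique.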

How the data were processed

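RNA of 8 samples was sequenced as paired ends. Per the methods of the study, the authors used TopHat on trimmed, quality-filtered reads with genome v1.5 as reference, kept unique alignments and ran Cufflinks on them, and the deposited FPKM come with bounds of 95% confidence intervals. The submitters' processing notes name TopHat 1.0.13, whereas the methods of the study name a later version. Which run gave the deposited FPKM is therefore not known. Neither tool nor build is named in the table, whose genes lie on 423 scaffolds.

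Samples were grouped by their titles, and columns were matched by the sample names in the first line of the table. Implied fragments were computed as 4 times the square of FPKM over its distance to the upper bound. Leaf and root were compared with limma (lmFit, eBayes with trend) on log2(FPKM + 1), over genes that reached FPKM 1 in 2 or more of these 4 samples, with Benjamini-Hochberg adjustment. Fold changes on this scale understate those of low genes. On simulated data 200 of 200 changed genes (8-fold) were recovered, with 8 false calls among 25725 genes. The simulated noise was independent between samples and of equal size for all genes. This checks the code only, and does not measure recovery or false calls at the smaller differences reported here. The replicates are labelled as biological.

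Named genes were the 4 homologues and, for each, the 3 with the highest Pearson's r over 8 samples, among genes with FPKM of at least 1 in 2 samples and a highest FPKM of at least 5. The homologues, lists and rules were chosen with earlier results of these data known. Other pathway genes and tissue markers were not analysed here, because 1 identifier of the table was found in the gene name table (CAAS_Brap_v3.01). Alternatives covered pseudocount, filter, scaling, variance trend, samples, block and each replicate left out. Python 3.11.15, numpy 2.4.6, pandas 2.3.3, scipy 1.17.1, matplotlib 3.10.9, R 4.3.3 and limma 3.58.1 were used.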

Additional observations from a re-analysis of the deposited data

How the results depend on the processing

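Of the 13109 genes called between leaf and root, 32.1% were higher in leaf, against 39.9% with upper quartile scaling and 46.5% with median of ratios scaling. Leaving out 1 sample gave 7215 to 9502 calls, with the lone sample assumed to vary like the others. With the replicate number as a block 19827 genes were called, Bra034941 kept its call (-1.08, adjusted p = 0.000555 in limma) and no CYP79B homologue gained one. Per the methods of the study the paired samples came from different batches of plants, but neither these nor the labels say that root and leaf of the same number shared a batch. Deviations of same-numbered samples correlated at 0.640 across 25725 genes. Without 1 sample the leaf minus root difference ran from -1.23 to -0.93 for Bra034941, -0.29 to 0.33 for Bra010644, -0.54 to 0.044 for Bra030246 and -0.37 to -0.039 for Bra011821. With upper quartile scaling it was 0.054 for Bra011821, 0.0055 for Bra030246 and -0.82 for Bra034941. With median of ratios scaling these values were 0.21, 0.16 and -0.66. Bra010644 was not tested with a minimum FPKM of 5.

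T of Bra011821, Bra010644, Bra030246 and Bra034941 was 0.731, 0.879, 0.832 and 0.653 over 8 single samples, 0.482, 0.700, 0.630 and 0.258 from log2(FPKM + 1), and 0.720, 0.847, 0.836 and 0.561 with median of ratios scaling. At 4-fold in place of 2-fold, 11 of the values of a tissue against the others were called. The share of all expressed genes past 4-fold was not computed, so this count cannot be called high or low. With r taken over the means of the 6 tissues, 2 of the 3 most alike genes were kept for Bra011821 and for Bra010644. For Bra030246 and for Bra034941 1 was kept. By Spearman's rho 0 were kept for each homologue, but values are tied there and the 3 most alike genes are not unique. With every gene tied with the third highest counted, an alternative chosen after seeing the data, 1 of the 3 most alike genes was kept for Bra030246 (Bra026266) and 1 for Bra034941 (Bra011939), and 0 for Bra011821 and Bra010644. At this depth Bra011821 in silique rested on 5 implied fragments, and Bra010644 in flower and Bra030246 in silique are listed at 0.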

Other observations

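No other gene model of the table overlapped the loci of the 4 homologues, which span 1831 to 2268 bases. The nearest models lay at 1006 bases from Bra011821 and 1204 bases from Bra010644, and at 11227 and 30300 bases from Bra030246 and Bra034941. Over the 8 samples, as a description, r with the model before and after it was 0.32 (Bra011820) and 0.81 (Bra011822) for Bra011821, 0.074 (Bra010643) and 0.025 (Bra010645) for Bra010644, and -0.53 (Bra034939) and 0.81 (Bra034943) for Bra034941. For Bra030246 it was 0.22 with the model before it (Bra030245), and the one after it (Bra030247) is listed at 0 in every sample.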
